A study of Mus musculus with 6 samples.

Results

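The secreted Wnt antagonists described here are 8 genes, Wif1, Sfrp1, Sfrp2, Sfrp4, Sfrp5, Frzb, Dkk2 and Dkk3, out of 19938 genes named on the arrays. Members were chosen by symbol, with earlier results of these data known, Wif1 among them, so counts of members describe them and do not test them. Each was read from the probe set annotated to that gene alone, and each of the 8 has 1 such probe set. All 8 passed the filter on low values that left 14953 genes for testing, and on all 6 arrays each lay above the filter floor of 5.21 (log2).

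RNA levels were read on Affymetrix Mouse Gene 1.0 ST arrays from FAPs (fibro/adipogenic progenitors), stromal cells that lie between muscle fibres. The cells came from wild-type male C57Bl/6 mice aged 8 to 12 weeks, whose tibialis anterior muscles had all received 30 µL of 50% glycerol, a chemical injury followed by fat and scar formation. A vivo-morpholino (VMO), an antisense oligomer with a delivery group, was injected 3 days later and cells were isolated after another 2 days. The 3 groups received a Control VMO, pA-VMOs against polyadenylation sites, or a 5'ss-VMO against a 5' splice site. According to the title, the study concerned intronic polyadenylation of the PDGFRα transcript, and all 3 groups, the control included, were injured and injected. Each group had 2 arrays, each from cells pooled from 4 mice.

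Wnt proteins are secreted lipid-modified ligands that bind Frizzled receptors and the co-receptors LRP5 and LRP6, which stabilises beta-catenin so that it can act with TCF/LEF factors on target genes. Antagonists outside the cell act at 2 levels. WIF1 and the SFRP family, to which Frzb (also called Sfrp3) belongs, bind the Wnt ligands themselves, whereas Dickkopf proteins such as DKK2 bind the LRP co-receptors. DKK3 is a divergent Dickkopf protein. In muscle, Wnt signalling has been tied to both regeneration and fibrosis, and stromal cells are one source of its inhibitors.

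The array-level values were close across the series, with a correlation of at least 0.99 between any pair of arrays, and over the genes tested both arrays of a group differed with an SD of 0.12 to 0.13 (log2). The FAP label was read beside 12 FAP markers, of which 11 were on the array and all 11 passed the filter. Of all 19938 named genes 14953 passed it, so passing alone does not check the label. Pdgfra had a log2 level of 11.3 averaged over the arrays, Dcn one of 12.9 and Col1a1 one of 13.1. Of the neutrophil markers 4 of 6 and of the lymphocyte markers 4 of 7 were below the floor, among them Ly6g and Ms4a1, whereas 12 of 12 macrophage markers and 9 of 9 markers of satellite cells and myoblasts passed it.

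With 5'ss-VMO, Wif1 fell, and it was the 1 member of 8 called, where 0.582% of all genes tested were called. Both 5'ss-VMO arrays lay below both control arrays for 6 of the 8, beside 21.5% of all genes, and for one of these, Sfrp2, by less than rounding shows (12.47 on both sides). With pA-VMO 0 of 8 were called, beside 0.00669% of all genes, and the differences had both signs. Differences below are in log2 units, tested with limma over all genes with Benjamini-Hochberg adjustment, and a gene was called at an adjusted p under 0.05. With 2 arrays a side, the smallest p of an exact permutation test is 0.333, so calls rest on the spread shared across genes. The labels describe the 2 arrays of a group as biological replicates. In a bulk preparation, fewer cells that express a gene and less of its RNA per cell cannot be told apart.

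**Figure D1:**
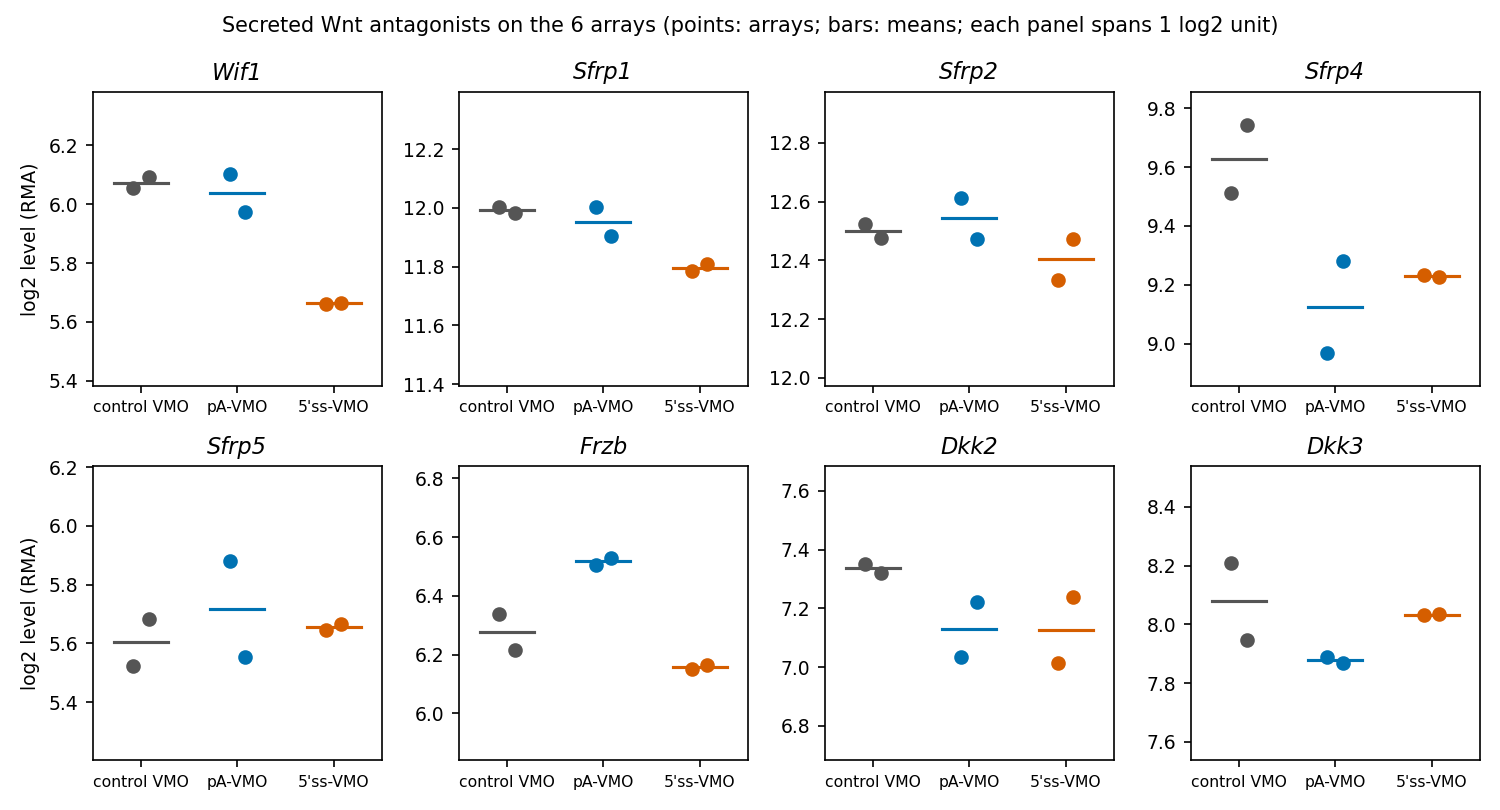
Log2 RMA level (y axis) of each of the 8 secreted Wnt antagonists in the 3 groups (x axis); points are single arrays, bars are group means, and every panel spans 1 log2 unit. Wif1 lay at 5.66 on both 5'ss-VMO arrays and at 5.97 or above on the other 4, Sfrp4 was highest on the control arrays, and Frzb was highest on the pA-VMO arrays.

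Wif1 encodes WIF1 (Wnt inhibitory factor 1), which captures Wnt ligands through its WIF domain, and lies on chromosome 10 from 121034004 to 121100642 (GRCm38.p6). It lay at a log2 level of 6.05 and 6.09 with control, 6.10 and 5.97 with pA-VMO, and 5.66 on both arrays with 5'ss-VMO. Both 5'ss-VMO arrays were thus below all 4 others, and control and pA-VMO overlapped. Wif1 fell by 0.41 ± 0.069 (SE, n = 2 arrays per group, 95% interval -0.57 to -0.25) with 5'ss-VMO against control, which is 1.33-fold lower (adjusted p = 0.0415). It was one of 12 genes that fell in this comparison. The call rests on all 4 arrays compared: the difference was -0.43 without control replicate 1 (adjusted p = 0.188), -0.39 without control replicate 2 (0.199), and -0.41 without either 5'ss-VMO array (0.145 and 0.169). With no filter on low values the same difference of -0.41 had an adjusted p of 0.124. Wif1 lay near the filter floor of 5.21, and a filter at the 50th percentile (6.30) left it untested.

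Against control, pA-VMO left Wif1 within -0.19 to 0.12 (95% interval of a difference of -0.03, adjusted p = 0.896). Set directly against each other, pA-VMO was above 5'ss-VMO by 0.38 ± 0.069 (95% interval 0.22 to 0.53), and this difference did not pass the threshold (adjusted p = 0.0687). The higher level of Wif1 with pA-VMO than with 5'ss-VMO held in sign with any array left out, between 0.31 and 0.44.

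TCF/LEF factors bind a DNA core written as CTTTGA or CTTTGT, and some extracellular Wnt antagonists are known to be induced by the pathway they restrain. The 250 bases before a start site were therefore read from the RefSeq promoter table (GRCm38.p6), which matched 5 of the 8 members, namely Wif1, Sfrp2, Sfrp5, Frzb and Dkk2. The start in that table is the gene's outer start for Wif1, Sfrp5 and Frzb, but lies 26 bases inside the gene as annotated for Dkk2 and 571 bases inside it for Sfrp2, so those windows overlap the annotated gene. Wif1 is shown because it was the member called, and Frzb and Dkk2 because their windows hold the core. The windows run 5′ to 3′ in the direction of the gene, with matches to the core on either strand in capitals. They are chr10:121033754-121034003 on the plus strand for Wif1, chr2:80447397-80447646 on the minus strand for Frzb and chr3:132085042-132085291 on the plus strand for Dkk2.
Wif1: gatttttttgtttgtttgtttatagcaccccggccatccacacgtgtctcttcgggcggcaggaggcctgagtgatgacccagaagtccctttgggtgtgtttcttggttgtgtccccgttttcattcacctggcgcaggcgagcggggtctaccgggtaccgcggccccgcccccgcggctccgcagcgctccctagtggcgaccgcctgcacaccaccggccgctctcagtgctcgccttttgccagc
Frzb: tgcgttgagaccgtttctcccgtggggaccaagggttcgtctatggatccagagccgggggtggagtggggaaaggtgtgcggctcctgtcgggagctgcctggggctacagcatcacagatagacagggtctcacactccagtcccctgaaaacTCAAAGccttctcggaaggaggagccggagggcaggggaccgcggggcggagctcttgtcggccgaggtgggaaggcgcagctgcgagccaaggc
Dkk2: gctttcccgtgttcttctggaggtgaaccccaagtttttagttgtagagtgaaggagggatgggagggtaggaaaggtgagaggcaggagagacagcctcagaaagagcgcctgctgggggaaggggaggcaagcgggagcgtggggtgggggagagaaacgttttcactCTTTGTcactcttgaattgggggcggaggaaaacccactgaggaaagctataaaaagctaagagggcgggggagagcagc
The Frzb window holds the core on the opposite strand from 95 to 90 bases before the table's start, and the Dkk2 window holds it as CTTTGT from 80 to 75 bases before the table's start. No match to these letters was found in the windows of Wif1, Sfrp2 and Sfrp5. Of all 32851 promoter windows in that table, 27.6% hold the core in either form, so a match in 2 of 5 windows is a description only. The GC box GGGCGG, searched on both strands, occurs in 32.7% of all windows and in 4 of these 5, with 2 copies each for Wif1 and Dkk2, 1 each for Frzb and Sfrp5, and 0 for Sfrp2. The G and C content was 62.8% for Wif1, 64.4% for Frzb and 55.6% for Dkk2, beside a median of 52.4% over all windows.

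Among the SFRP genes, Sfrp4 had the largest differences from control, with both reagents, and neither passed the test. Sfrp4, a Wnt-binding protein with a Frizzled-like cysteine-rich domain (chromosome 13, 19623175 to 19632825), lay at 9.51 and 9.74 with control, at 8.97 and 9.28 with pA-VMO, and at 9.23 and 9.22 with 5'ss-VMO. Both control arrays were above the 4 others, while the arrays of the 2 Pdgfra reagents overlapped. The difference from control was -0.50 ± 0.109 with pA-VMO (1.42-fold lower, 95% interval -0.75 to -0.26, adjusted p = 0.228) and -0.40 ± 0.109 with 5'ss-VMO (1.32-fold lower, 95% interval -0.65 to -0.15, adjusted p = 0.176). With an eBayes fit that lets the spread vary with the level and guards against outlying genes, Sfrp4 passed in both comparisons (adjusted p = 0.0395 and 0.0454). The control arrays themselves differed by 0.23 and the pA-VMO arrays by 0.31. The difference with pA-VMO ranged from -0.66 to -0.35, and that with 5'ss-VMO from -0.51 to -0.28, when single arrays were left out. Between the reagents Sfrp4 differed by -0.10 (95% interval -0.35 to 0.14, adjusted p = 0.682).

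Sfrp1 and Sfrp2, which with Sfrp5 form one branch of the family, were lowest by group mean with 5'ss-VMO, as Wif1 was, with smaller differences. Sfrp1 (chromosome 8, 23411383 to 23449632) lay at 12.00 and 11.98 with control, 12.00 and 11.90 with pA-VMO, and 11.79 and 11.81 with 5'ss-VMO. The 5'ss-VMO arrays were again below all 4 others. Its difference from control was -0.20 ± 0.066 with 5'ss-VMO (95% interval -0.35 to -0.05) and did not pass (adjusted p = 0.25). It did with the fit that lets the spread vary with level (adjusted p = 0.0454), which called 265 genes rather than 87. With pA-VMO Sfrp1 was at -0.04 (95% interval -0.19 to 0.11, adjusted p = 0.858).

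Sfrp2 (chromosome 3, 83765750 to 83774314), which is known to be secreted by fibroblasts in injured tissue, lay at 12.52 and 12.47 with control, at 12.61 and 12.47 with pA-VMO, and at 12.33 and 12.47 with 5'ss-VMO. An array of each group thus lay at 12.47, so the order of the groups was not larger than their spread. The differences were -0.09 ± 0.077 for 5'ss-VMO against control (adjusted p = 0.627) and 0.04 ± 0.077 for pA-VMO against control (adjusted p = 0.872). For pA-VMO against 5'ss-VMO the difference was 0.14 ± 0.077 (95% interval -0.04 to 0.31, adjusted p = 0.415).

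Sfrp5 was the one member above control with 5'ss-VMO. This inhibitor, known as an adipokine of fat tissue (chromosome 19, 42197971 to 42202252), lay at 5.52 and 5.68 with control, 5.88 and 5.56 with pA-VMO, and 5.64 and 5.67 with 5'ss-VMO, all near the floor. The groups overlapped in every comparison. Its differences were 0.05 with 5'ss-VMO (95% interval -0.19 to 0.29, adjusted p = 0.862), 0.11 with pA-VMO (95% interval -0.12 to 0.35, adjusted p = 0.719) and 0.06 between the reagents (adjusted p = 0.819). Each of these changed sign when 1 array was left out.

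Frzb was higher with pA-VMO than with 5'ss-VMO, without a call. Frzb, an SFRP first known from cartilage (chromosome 2, 80411970 to 80447396), lay at 6.34 and 6.22 with control, 6.50 and 6.53 with pA-VMO, and 6.15 and 6.17 with 5'ss-VMO. The groups did not overlap, with pA-VMO highest and 5'ss-VMO lowest. For 25.5% of all genes tested the pA-VMO arrays lay above the 5'ss-VMO arrays without overlap. The difference of pA-VMO from 5'ss-VMO was 0.36 ± 0.068 (1.28-fold, 95% interval 0.20 to 0.51) and missed the threshold (adjusted p = 0.0717). When only genes above the 50th percentile were tested, Frzb passed in this comparison (adjusted p = 0.0311). Its mean over all arrays, 6.32, was just above that floor of 6.30, while its control (6.28) and 5'ss-VMO (6.16) means were below it. Frzb thus entered that test only through its pA-VMO level, and the setting called 102 genes between the reagents, beside 9 in the main fit. The pass therefore adds no support. Against control, Frzb was at 0.24 ± 0.068 with pA-VMO (95% interval 0.08 to 0.39, adjusted p = 0.284) and at -0.12 ± 0.068 with 5'ss-VMO (95% interval -0.27 to 0.04, adjusted p = 0.474). All 3 signs held in the fits that left out 1 array.

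The Dickkopf genes showed no called change. Dkk2, which binds LRP5 and LRP6 (chromosome 3, 132085266 to 132180304), lay at 7.35 and 7.32 with control, 7.04 and 7.22 with pA-VMO, and 7.01 and 7.24 with 5'ss-VMO. Both control arrays were above all others, and the reagents were level with each other. The differences from control were alike in size, -0.21 ± 0.093 with either reagent (adjusted p = 0.361 with 5'ss-VMO and 0.44 with pA-VMO), and the reagents differed by 0.002 (95% interval -0.21 to 0.21). Dkk3 (chromosome 7, 112116019 to 112159482) lay at 8.21 and 7.95 with control, 7.89 and 7.87 with pA-VMO, and 8.03 on both 5'ss-VMO arrays. Its pA-VMO arrays were the lowest. The differences of Dkk3 were -0.20 ± 0.087 for pA-VMO against control (95% interval -0.39 to -0.003, adjusted p = 0.43) and -0.05 for 5'ss-VMO against control (adjusted p = 0.852). The pA-VMO arrays were below the 5'ss-VMO arrays by 0.15 ± 0.087 (95% interval of the difference -0.35 to 0.04, adjusted p = 0.421). The control arrays of Dkk3 differed by 0.26, more than those of any other member, and without control replicate 1 its difference with 5'ss-VMO became 0.08.

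**Figure D2:**
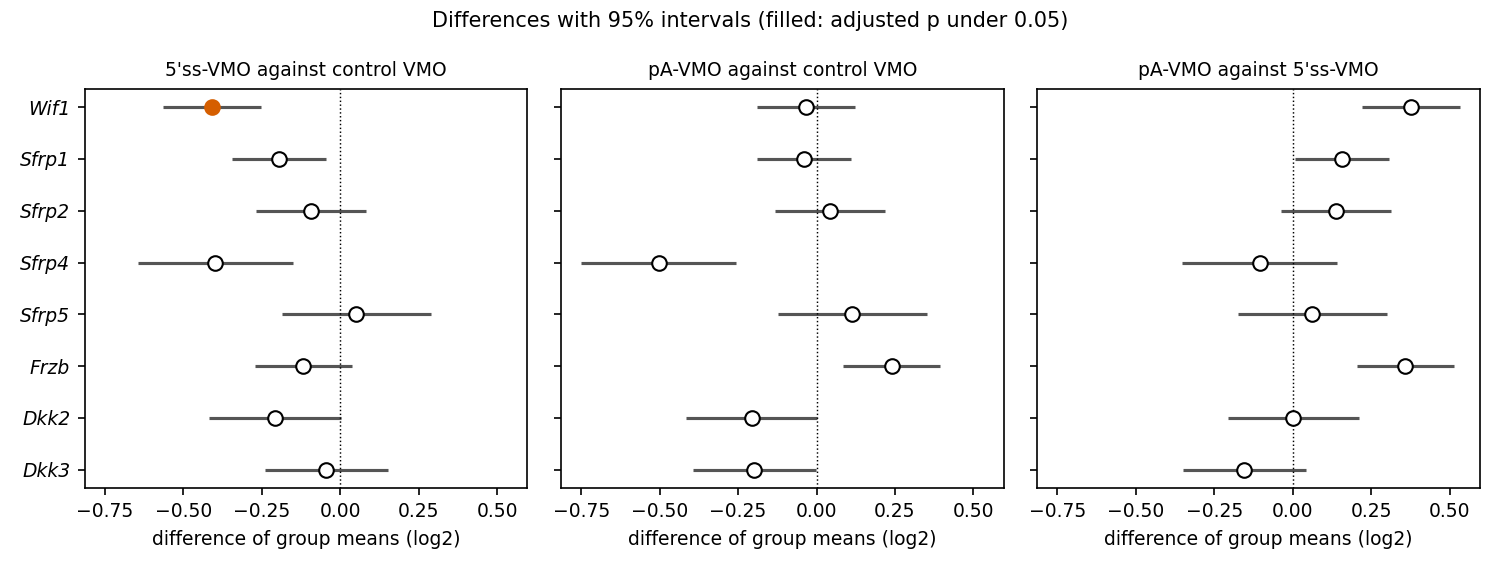
Difference of group means (x axis, log2) for each antagonist (y axis) in the 3 comparisons, with 95% intervals from limma; filled points passed an adjusted p of 0.05. Wif1 with 5'ss-VMO against control, at -0.41, is the one filled point, and among the open points the intervals that do not reach 0 are those of Sfrp1 and Sfrp4 with 5'ss-VMO against control, of Sfrp4, Frzb and Dkk3 with pA-VMO against control, and of Wif1, Sfrp1 and Frzb between the reagents.

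Counted as a group in the comparison of 5'ss-VMO with control, 1 of 8 members was called, where 0.582% of the 14953 genes were called and 0.0803% were called lower. At an unadjusted p under 0.05 there were 3 of 8 members, Wif1, Sfrp1 and Sfrp4, beside 13.9% of all genes. Both 5'ss-VMO arrays lay below both control arrays for 6 of 8 members, beside 21.5% of all genes, and above them for 0 of 8, beside 23.2%. For Sfrp2, among the 6, this was by less than rounding shows. The difference was below 0 for 7 of 8, beside 49.6% of all genes. The median difference of the members was -0.16, and that of all genes tested was 0.001. The 8 genes were chosen with earlier results of these data known, Wif1 among them, so these counts describe the members and do not test them.

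For pA-VMO against control, limma called 0 of 8 members, beside 0.00669% of all genes. At an unadjusted p under 0.05 there were 3 members, Sfrp4 and Dkk3 below and Frzb above control, beside 11.4% of all genes. The arrays did not overlap and were lower with pA-VMO for 3 of 8 (Sfrp4, Dkk2 and Dkk3), beside 18.8% of all genes, and higher for 1 of 8 (Frzb), beside 24.1%. The difference was below 0 for 5 of 8, beside 44.8% of all genes, and the members had a median difference of -0.04, beside 0.01 for all genes. The fit that lets the spread vary with level called 1 member, Sfrp4, among 49 genes. This comparison and the one before it share the control arrays.

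Between pA-VMO and 5'ss-VMO, limma also called 0 of 8 members, beside 0.0602% of all genes. The pA-VMO arrays were above the 5'ss-VMO arrays without overlap for 4 of 8 (Wif1, Sfrp1, Sfrp2 and Frzb), beside 25.5% of all genes, and below them for 1 of 8 (Dkk3), beside 23.7%. For Sfrp2 the nearest arrays of both groups were apart by less than rounding shows (12.47 on both sides). At an unadjusted p under 0.05 there were 3 of 8, Wif1, Sfrp1 and Frzb, beside 15.9% of all genes. The difference was below 0 for 2 of 8, beside 48.6% of all genes. The median difference was 0.10 for the members and 0.004 for all genes. The pA-VMO and 5'ss-VMO arrays are those already used in the 2 comparisons with control, so the 3 comparisons are not independent.

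**Figure D3:**
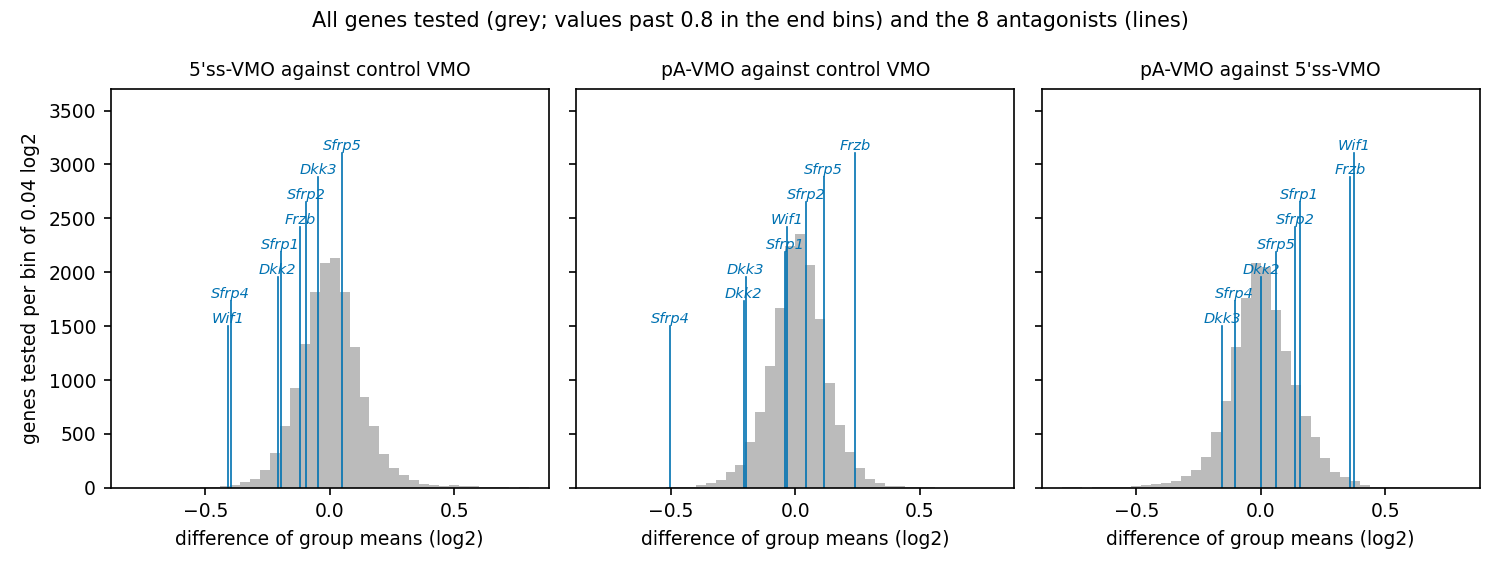
Histogram of the differences of all 14953 genes tested (x axis in log2, y axis in genes per bin, grey) in the 3 comparisons, with the 8 antagonists as labelled lines whose heights carry no value. With 5'ss-VMO against control 7 of 8 lines lie below 0, from Wif1 at -0.41 to Sfrp5 at 0.05, whereas with pA-VMO the lines run from Sfrp4 at -0.50 to Frzb at 0.24.

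The median gap between the arrays of a group over the 8 genes was 0.02 with 5'ss-VMO, 0.09 with control and 0.13 with pA-VMO, beside 0.07 to 0.08 over all genes tested in each group. The widest gaps were 0.33 for Sfrp5 and 0.31 for Sfrp4 with pA-VMO, while for Dkk2 (0.225) and Sfrp2 (0.138) the gap was widest with 5'ss-VMO. By group mean, 5 of 8 members were highest with control (Wif1, Sfrp1, Sfrp4, Dkk2 and Dkk3) and 3 with pA-VMO (Sfrp2, Sfrp5 and Frzb). The lowest mean was that of 5'ss-VMO for 5 members, but for Dkk2 it was lower than that of pA-VMO by only 0.002.

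Among all pairs of members, Sfrp1 and Sfrp2 had the smallest root mean square distance over the 6 arrays, 0.0571 (log2), between values centred on each gene's mean. The values were not scaled, so genes that vary little lie close whatever their course. Sfrp1 and Sfrp2 had the smallest ranges over the arrays (0.22 and 0.28), and Sfrp4 had the largest (0.77). Wif1 was closest to Sfrp1 among the members, at 0.104, and Sfrp4 and Frzb were the farthest pair at 0.333. Over 13933 other named genes, those with the smallest distance to Wif1 were Togaram2 (0.0498), Celf3 (0.0548), Ccdc96 (0.0566), Magea10 (0.0574) and C1rl (0.0578), beside a median distance of 0.204. Togaram2, Celf3, Ccdc96 and Magea10 had no array above 5.74, near the floor, and C1rl, a complement C1r-like protease, ran from 6.68 to 7.08. None of these 5 passed the test for 5'ss-VMO against control, with C1rl at -0.33 (adjusted p = 0.0808). The distances rest on 6 arrays and describe likeness only.

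Of other Wnt pathway genes, 84 from 7 lists were on the array and 80 were tested, and limma called 0 of 80 in each comparison, beside 0.582%, 0.00669% and 0.0602% of all genes for 5'ss-VMO against control, pA-VMO against control and the reagents against each other. At an unadjusted p under 0.05 there were 7, 7 and 13 of the 80, beside 13.9%, 11.4% and 15.9% of all genes. The fit that lets the spread vary with level called 0 of 80 in each comparison as well. In these lists 6 genes stand in 2 of them.

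Ligands and their secretion came first. Of 19 Wnt ligands 17 were tested, with a median difference of -0.06 with 5'ss-VMO and 0.07 with pA-VMO. Wnt5a, a ligand best known for beta-catenin-independent signalling, was at 0.17 with 5'ss-VMO (adjusted p = 0.563) and at 0.07 with pA-VMO (adjusted p = 0.871). Wnt11 was at 0.07 and -0.04, and Wnt9a at -0.06 and -0.03, in the same order. Wls, which carries Wnt proteins to the cell surface, was at -0.05 with 5'ss-VMO (adjusted p = 0.81) and -0.18 with pA-VMO (adjusted p = 0.432). Porcn, the enzyme that attaches the lipid to Wnt proteins, was at -0.23 (adjusted p = 0.227) and -0.10 (adjusted p = 0.617).

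Receptors moved little. The 17 receptors and co-receptors had medians of -0.004 with 5'ss-VMO and -0.002 with pA-VMO, and no member lay beyond -0.19 or 0.17 in these comparisons. Fzd1, a Frizzled receptor, was at -0.12 and 0.07, and the Wnt-binding kinase-like receptors Ryk and Ror1 were between -0.04 and 0.03. R-spondins raise Wnt responses by sparing Frizzled receptors from the ubiquitin ligases Znrf3 and Rnf43. The 9 genes of that list had medians of -0.07 and -0.03, with Rspo3 at -0.07 and -0.04, its receptor gene Lgr4 at -0.14 and -0.24 (adjusted p = 0.508 and 0.363), and Znrf3 at -0.04 and -0.03.

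The other secreted or surface antagonists had 11 of 13 genes tested, with medians of -0.07 with 5'ss-VMO, where 8 of 11 were below 0, and -0.01 with pA-VMO. Igfbp4, an insulin-like growth factor binding protein also described as a Wnt inhibitor, was at -0.13 (adjusted p = 0.414) and -0.10 (adjusted p = 0.595). Trabd2b, which encodes a protease that inactivates Wnt proteins, was at 0.08 and 0.12, and Draxin at -0.13 and -0.06. Dkk1 and Dkk4, singled out after their values were seen because they belong to the Dickkopf family, were dim. Dkk1, the classical LRP-binding inhibitor, lay at 5.75 and 5.85 with control, 5.83 and 5.84 with pA-VMO, and 5.56 and 5.45 with 5'ss-VMO. Its 5'ss-VMO arrays were below all 4 others, at -0.30 ± 0.071 against control (adjusted p = 0.134), and the pA-VMO arrays were 0.33 above them (adjusted p = 0.0931). Dkk4 was at 0.41 ± 0.092 with pA-VMO against control (adjusted p = 0.228) and at 0.02 with 5'ss-VMO (adjusted p = 0.956).

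Readouts of beta-catenin activity had no called change. The 15 genes known to be induced by beta-catenin had a median difference of 0.03 with 5'ss-VMO and -0.02 with pA-VMO. Myc was at -0.05 and -0.03, Ccn4 at 0.19 (adjusted p = 0.287) and 0.03, and the cyclin gene Ccnd1 at 0.25 (adjusted p = 0.322) and 0.32 (adjusted p = 0.316). Axin2, a widely used readout named here after its values were seen, lay at 5.90 on both control arrays, 6.09 and 5.95 with pA-VMO, and 5.94 and 5.92 with 5'ss-VMO. Its differences from control were 0.12 with pA-VMO (adjusted p = 0.554) and 0.03 with 5'ss-VMO (adjusted p = 0.865). The 15 cytoplasmic transducers had medians of 0.03 and 0.01, with Ctnnb1, which encodes beta-catenin, at -0.04 and 0.05, Csnk1a1 at 0.01 and 0.03, and Gsk3b at 0.03 and -0.06.

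**Figure D4:**
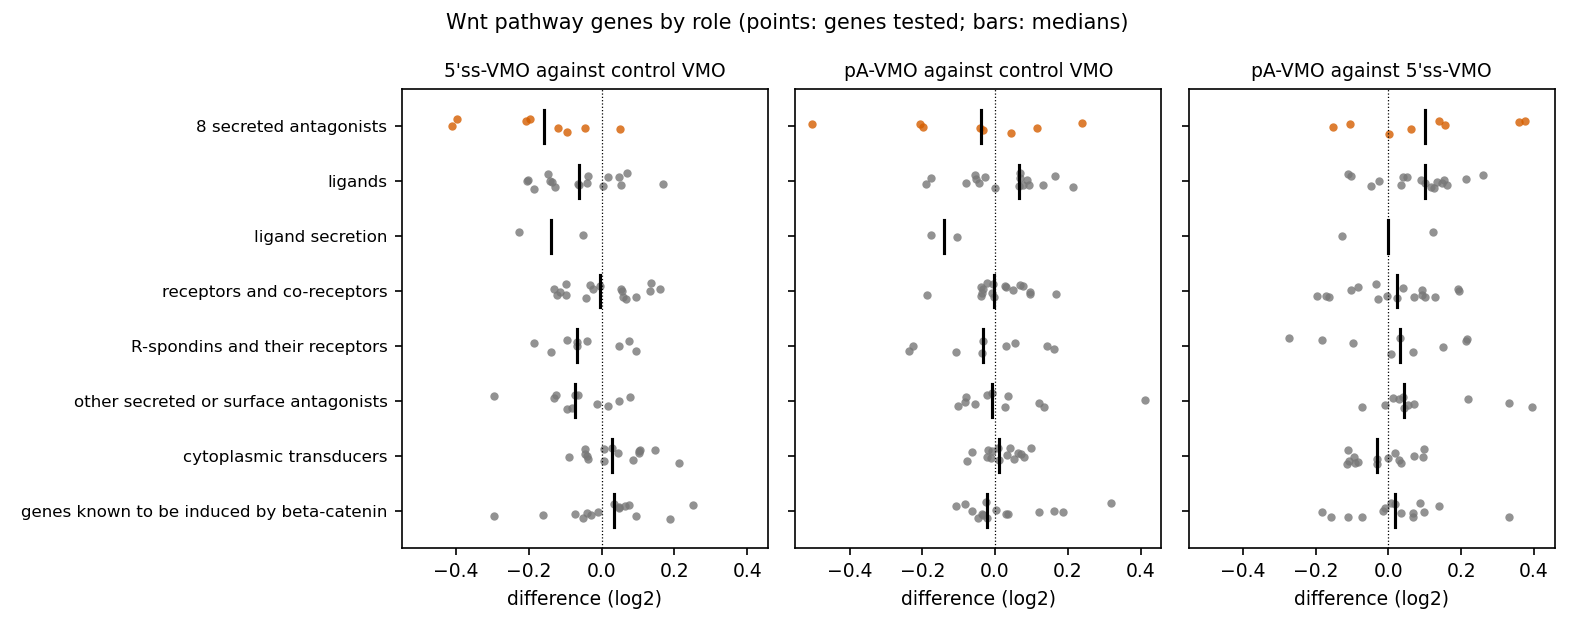
Differences (x axis, log2) of the 8 antagonists (orange) and of the tested Wnt pathway genes by role (grey) in the 3 comparisons; points are genes and bars are medians, and 6 genes appear in 2 lists. With 5'ss-VMO against control the antagonists' median lies at -0.16, and those of the 7 lists lie from -0.14 for the 2 ligand secretion genes, through -0.07 for other secreted or surface antagonists, to 0.03 for beta-catenin-induced genes.

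Markers of cell types were read on the same arrays. The mean log2 level of the 11 FAP markers was 10.94 to 10.99 with control, 10.81 to 10.85 with pA-VMO and 10.80 to 10.83 with 5'ss-VMO. With 5'ss-VMO 10 of 11 were below control (median difference -0.09), beside 49.6% of all genes tested. With pA-VMO 9 of 11 were below control (median -0.11), beside 44.8%. Among the FAP markers, Dpp4 fell with 5'ss-VMO, by 0.52 (adjusted p = 0.0318), and lay at -0.45 with pA-VMO (adjusted p = 0.204). The 12 macrophage markers had a mean level of 6.46 to 6.61 with control, 6.71 to 6.73 with pA-VMO and 6.85 on both 5'ss-VMO arrays. All 12 were above control with 5'ss-VMO and 11 of 12 with pA-VMO, and 2, the complement genes C1qa and C1qc, rose with 5'ss-VMO. The 9 satellite cell and myoblast markers had means of 6.41 to 6.57, 6.48 to 6.51 and 6.75 to 6.85 in the order control, pA-VMO and 5'ss-VMO. All 9 were above control with 5'ss-VMO, with 1, Chrna1, called, and 4 of 9 were above control with pA-VMO. Of all genes tested, 49.6% were below control with 5'ss-VMO and 44.8% with pA-VMO. Called against control were 0.582% of all genes with 5'ss-VMO and 0.00669% with pA-VMO. The 8 endothelial markers had means of 5.83 to 6.00, 6.01 to 6.07 and 6.09 to 6.10, with Cdh5 called higher with 5'ss-VMO, although 4 of the 7 tested were below control there and the median difference was -0.03. The 7 pericyte and smooth muscle markers had means of 6.79 to 6.84, 6.90 to 6.99 and 6.95 to 6.97, with Mcam called higher with 5'ss-VMO. For 8 tenocyte markers the means were 8.30 to 8.34, 8.04 to 8.05 and 8.15 to 8.25, with Kera called lower with either reagent. Of these 8, 5 were below control with 5'ss-VMO (median difference -0.05) and 4 with pA-VMO (median -0.16), and Scx, Mkx and Fmod were above control with both. The 8 muscle fibre markers ran from 6.33 to 6.46 with control, from 6.41 to 6.43 with pA-VMO and from 6.47 to 6.51 with 5'ss-VMO, and the 5 Schwann cell markers from 5.84 to 5.86, 5.77 to 5.78 and 5.71 to 5.83. The neutrophil markers (6 on the array) ranged from 4.56 to 4.68 and the lymphocyte markers (7) from 4.75 to 4.83 over all arrays. The part of these shifts in the differences of the antagonists was not tested.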

How the data were processed

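Total RNA of 6 samples, each a pool of cells from 4 mice, was labelled from 100 ng and hybridised to Affymetrix Mouse Gene 1.0 ST arrays, per the labels' protocols. Per the submitters' processing notes, the authors obtained the deposited log2 values by RMA in Affymetrix Expression Console, whose version and settings are not given in the sources. Because RMA equalises distributions between arrays, total RNA per cell is not seen. Depth does not apply to arrays, and their number limits the precision.

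Of 35556 probe sets, 21789 have 1 gene symbol in the platform annotation, 1621 have several and 12146 have none; those were not named. The highest-mean probe set stood for each of 19938 genes (999 have several). Genes with a mean under the 25th percentile (5.21) were left out, leaving 14953. The 3 groups were fitted together in R 4.3.3 by limma 3.58.1 (eBayes without trend, 3 residual and 6.06 prior degrees of freedom), without a block, with two-sided Benjamini-Hochberg adjusted p-values over all genes. The procedure was tested on simulated data.

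Members and lists were chosen with earlier results of these data known. All members are named; of each Wnt list, called genes or the 3 with the highest mean; and the 5 genes nearest to a called member, leaving out predicted genes, small RNAs and olfactory or vomeronasal receptors. Alternatives were the filter, the probe set rule, eBayes with trend and robust, centring, 2 groups per fit, a replicate block and leaving out each array. No scan dates were used, so batches were not tested.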

Additional observations from a re-analysis of the deposited data

How the results depend on the processing

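The counts of genes called moved with the processing. For 5'ss-VMO against control the 87 genes became 24 with no filter, 181 with a filter at the 50th percentile and 265 with trend and robust eBayes, and ran from 8 to 76 when single arrays were left out. For pA-VMO against control the 1 gene became 0 with no filter and 49 with trend and robust eBayes, with 0 to 2 when single arrays were left out. Between the reagents the 9 genes became 3, 102 and 186 under these 3 settings, 15 with probe sets averaged, and 1 to 18 when single arrays were left out. Members called with 5'ss-VMO against control were 0 with no filter, 0 at the 50th percentile (Wif1 was not tested there), 3 with trend and robust eBayes, and 0 to 1 when single arrays were left out. Trend and robust eBayes called 1 member for pA-VMO against control, and the 50th percentile filter 1 between the reagents. The cause was not tested, but the filters change how many genes are tested and which genes set the shared spread. For Sfrp1 with 5'ss-VMO against control the SE was 0.066 in the main fit. It was 0.070 with no filter and 0.061 with the filter at the 50th percentile.

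Same-numbered arrays did not deviate together (correlation of their differences 0.02, -0.10 and -0.03 in the 3 comparisons), so the numbers were not taken to pair samples. With the replicate block, Wif1 had an adjusted p of 0.0571, members called with 5'ss-VMO were 0, and genes called were 90, 1 and 23 in the 3 comparisons. The crossed replicate block, chosen after seeing the data, gave 5 genes and 0 members for pA-VMO against control.

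Of the 306 differences of members recomputed, 286 kept their direction and side of the threshold, 10 reversed, 6 were no longer called and 4 were newly called. Every reversal came from leaving out 1 array, with ranges from -0.028 to 0.131 for Sfrp5 and from -0.175 to 0.085 for Dkk3 with 5'ss-VMO against control. For pA-VMO against control the ranges were -0.099 to 0.030 for Wif1, -0.090 to 0.0091 for Sfrp1, -0.0245 to 0.113 for Sfrp2 and -0.0489 to 0.277 for Sfrp5. Between the reagents they were -0.260 to 0.050 for Sfrp4, -0.100 to 0.226 for Sfrp5 and -0.111 to 0.115 for Dkk2. The 6 lost calls were all Wif1 with 5'ss-VMO against control, whose sign held in every fit. Wif1 and Sfrp5 lie near the filter floor, where RMA compresses changes, and how much of their signal is background was not tested.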
